A study of Mus musculus with 6 samples.

Results

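Carriers of organic ions were examined in the ileal epithelium of control mice and of mice with an intestinal stem cell-specific knockout of Ogt. They were taken as every gene whose symbol places it in 1 of 4 solute carrier families, Slc22, Slc47, Slco or Slc16. This choice gave 56 of the 22274 genes listed, of which 26 are in Slc22, 14 in Slc16, 14 in Slco and 2 in Slc47. The rule uses symbols and no measured value, but it was set with earlier results of these data known. Of the 56, 1, Slc22a13b-ps, is annotated as a pseudogene.

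These membrane proteins move drugs, bile constituents, hormones and small metabolites into and out of cells. Slc22 holds the organic cation and carnitine carriers and the organic anion carriers, Slc47 the multidrug and toxin extrusion (MATE) exporters, Slco the organic anion transporting polypeptides (OATP), and Slc16 the monocarboxylate carriers (MCT) of lactate, pyruvate and ketone bodies together with carriers of thyroid hormone and amino acids. In the gut they sit on the luminal or blood-facing side of the absorptive cell and take part in the uptake of nutrients and oral drugs and in the return of metabolites to blood or lumen.

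The study sequenced total RNA of epithelial cells isolated from the ileum, with 3 libraries in each of 2 groups. Animals of the Ogt knockout group had floxed Ogt and carried Olfm4-CreER, a recombinase that tamoxifen activates and that is driven from Olfm4, a gene of crypt stem cells. Ogt encodes the transferase that adds single N-acetylglucosamine units to proteins of the nucleus and cytoplasm. The genotype label gives controls as floxed (LoxP) and names no driver, while their sample titles begin with Olfm4Ctrl. Whether controls carried the recombinase is not stated, so its presence cannot be told apart from the loss of Ogt. Animals received tamoxifen on 3 days in a row at an age of 2 months, and ileum was taken on day 10. Whether each library is a separate animal is not stated, and the p-values reflect only how these libraries spread, which may be technical.

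Library totals lay between 14389435 and 18076484 estimated counts, and 14005 genes had enough counts to be tested. Levels are given as CPM (counts scaled to library size with TMM factors) within a gene, and as FPKM (fragments scaled to transcript length and library size, deposited) between genes. A gene was called changed at a Benjamini-Hochberg adjusted p under 0.05 in edgeR's quasi-likelihood test. Ogt itself was at 140, 127 and 128 CPM in controls 1, 2 and 3 and at 48.5, 43.0 and 36.0 CPM in knockouts 1, 2 and 3 (log2 fold change -1.63 ± 0.13 SE, adjusted p = 0.00121). All 13 enterocyte markers examined were detected, with a summed level of 31960 to 42900 CPM in control and 29280 to 33680 CPM in knockout. Of these markers, 3 (Alpi, Fabp1 and Fabp2) were called lower and 0 higher. The libraries also held markers of other cells, among them 6 smooth muscle genes with a summed level of 924 to 2226 CPM in control and 850 to 1297 CPM in knockout.

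Of the 56 carriers, 26 had enough counts to be tested. Among the other 30, 15 were at 0 counts in all 6 libraries, and the highest total over the 6 libraries was 34 counts, for Slc16a4, an Slc16 member of unsettled substrate (16 in control and 18 in knockout). For a gene at 0, the 3 counts that a count of 0 still allows correspond to between 0.159 and 0.207 CPM in a library, for counting error only. The organic anion carriers of Slc22, best known from kidney and liver, were all in this group: 8 of 13 were at 0 throughout and none of the other 5 had more than 3 counts in all. Slc22a12, the urate exchanger of the renal tubule, had those 3 counts, all in knockout, and its exons overlap Nrxn2 on the opposite strand. Slc47a2 had 2 counts, both in control. In the Slco1 subfamily of liver and blood-brain barrier carriers, Slco1b2 had 1 count in control and 9 in knockout, too few for a test.

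The summed FPKM of all 56 carriers was 330.0, 351.1 and 347.7 in controls 1, 2 and 3 and 303.7, 309.6 and 290.2 in knockouts 1, 2 and 3. All 3 knockout sums were below all 3 control sums, a separation that 20.2% of single tested genes showed in CPM. FPKM was not scaled with TMM factors. The 6 most abundant carriers, Slc16a5, Slc22a18, Slc22a5, Slc16a1, Slc22a23 and Slco2a1, made up 66.7% to 73.9% of the sum in each library. None of these 6 was called changed. Mean levels of the 26 tested carriers over all libraries ran from 78.4 FPKM for Slc16a5 to 0.0733 FPKM for Slco5a1.

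**Figure D1:**
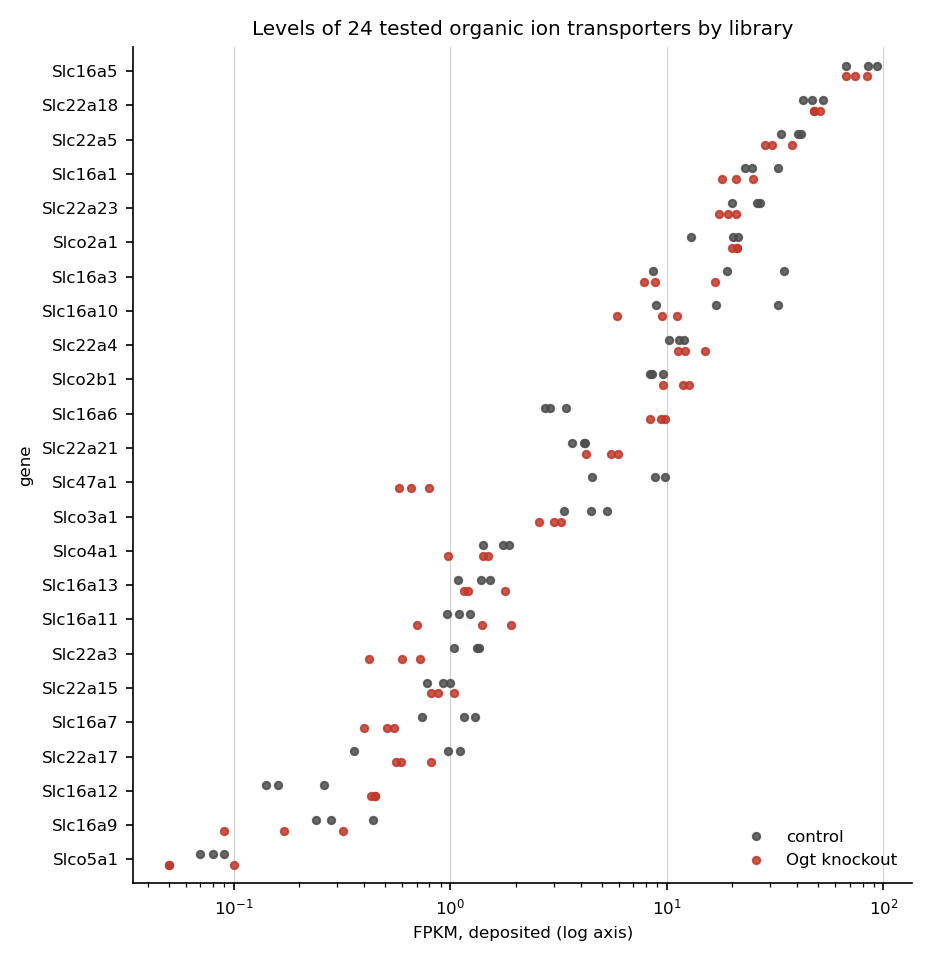
Deposited FPKM (log axis) of 24 of the 26 tested organic ion transporters, ordered by mean level, with 1 point per library in control (grey) and Ogt knockout (red). Slc16a5 is at the top with 67.2 to 92.9 FPKM in control, and the points of Slc47a1, Slc16a6, Slc22a3 and Slc16a12 are among those where the groups do not overlap.

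In the knockout, 1 carrier rose and 3 fell. The riser was Slc16a6, and the 3 that fell were Slc47a1, Slc22a3 and Slco3a1. Of all tested genes, 9.33% were called higher and 9.37% lower, and against that background the counts of 1 and 3 among 26 are not by themselves a result about the carriers. These shares are also the background for the counts of called genes in the gene lists that follow. Groups did not overlap for 2 carriers that were higher (Slc16a6 and Slc16a12) and 8 that were lower (among them Slc47a1, Slc22a3, Slco3a1, Slc16a7, Slco4a1 and Slc22a23), where the shares over all genes were 19.6% and 20.2%. The log2 fold change was below 0 for 20 of the 26 and above 0 for 6, with a median of -0.44 beside -0.047 over all tested genes. With library size alone in place of TMM factors the median of all genes was 0.089, and Slc16a13, Slc16a11, Slc22a18 and Slc22a15 changed to the positive side.

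Deviations from group means correlated at 0.282, 0.281 and 0.109 for control and knockout libraries numbered 1, 2 and 3. For libraries of unlike number the values ran from -0.297 to 0.059. Deviations within a group cancel each other, so these values are not independent of those for like numbers. The labels do not say what the number marks, so a block by number rests on a hint from these same data. A fit with this block called 1 carrier higher and 8 lower. These include the same 4 genes and add Slc16a10, Slc16a3, Slc16a1, Slc22a23 and Slc22a5. Over all genes the blocked fit called 12.3% higher and 11.9% lower. Of the 26 carriers, 23 would have passed the count filter through either group alone. Slc16a12 passed only through the knockout, and Slc16a9 and Slco5a1 only through the control, so their differences are partly set by the filter.

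**Figure D2:**
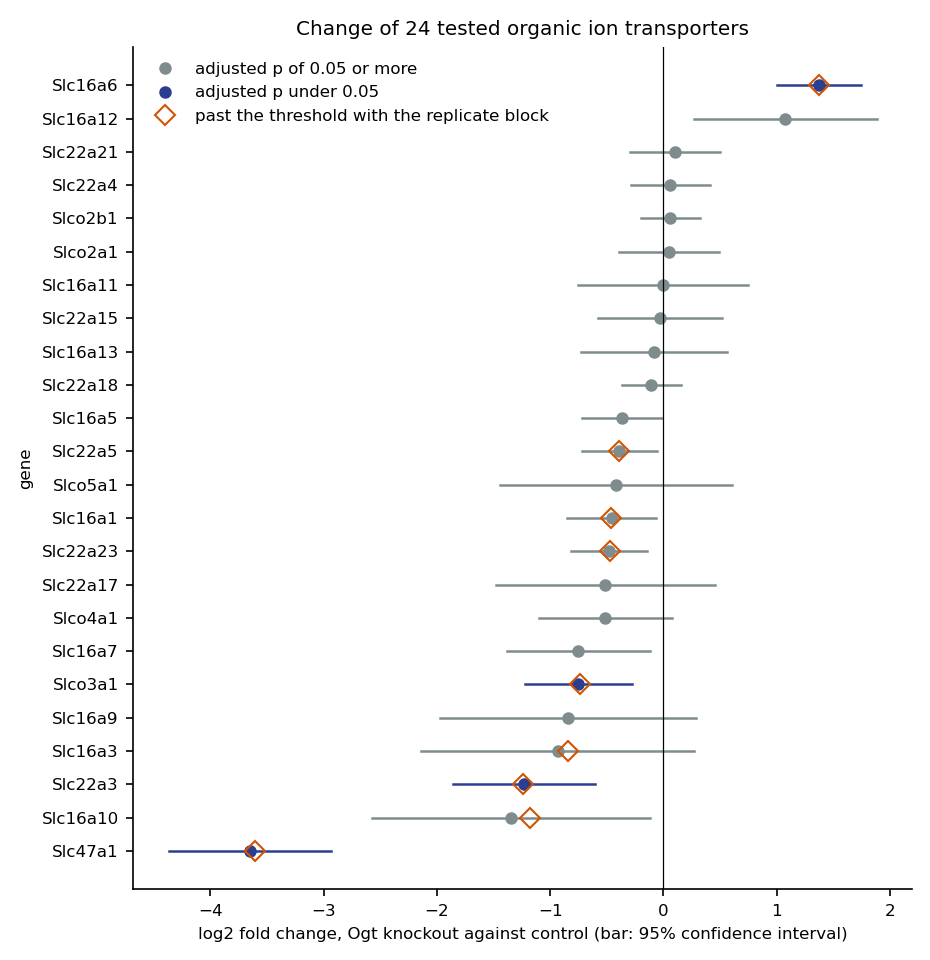
Log2 fold change of 24 of the 26 tested carriers in Ogt knockout against control, with points for the fit without a block and bars for its 95% confidence intervals. Blue points are the 4 carriers past an adjusted p of 0.05, and open diamonds mark, at the blocked estimate, the 9 past it with the replicate block. Points lie left of 0 for 18 of the 24 carriers, and Slc47a1 at -3.65 is the farthest.

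Slc47a1 (ENSMUSG00000010122) encodes MATE1, the proton-coupled exporter that moves organic cations such as metformin and creatinine out of cells in kidney and liver. Its level was 12.2, 25.65 and 22.7 CPM in controls 1, 2 and 3 and 1.73, 1.44 and 1.64 CPM in knockouts 1, 2 and 3. Every knockout library was far under the lowest control library, control 1. The gene had 1009 counts in control and 82 in knockout, a 12.6-fold lower level (log2 fold change -3.65 ± 0.31 SE, 95% interval -4.37 to -2.93, adjusted p = 0.00136). In RNA of whole cell preparations, fewer cells of a type and less RNA per cell cannot be told apart. The 12 tuft cell markers examined moved the same way: their summed level was 136 to 150 CPM in control and 38.5 to 48.3 CPM in knockout, and 9 of the 10 tested were called lower. All 12 were detected, and their part in the fall of Slc47a1 was not tested.

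Slc22a3 (ENSMUSG00000023828) encodes OCT3, a bidirectional low-affinity carrier of monoamines and cationic drugs. It was at 4.87, 4.91 and 3.88 CPM in controls 1, 2 and 3 and at 1.45, 2.00 and 2.33 CPM in knockouts 1, 2 and 3. The groups did not overlap, and knockout 3 was nearest to control. The fall was 2.35-fold (log2 fold change -1.23 ± 0.27 SE, adjusted p = 0.0191), resting on 227 counts in control and 101 in knockout. The call held when control 1 was left out (adjusted p = 0.0351) and was lost when any other library was left out, with adjusted p up to 0.0674. Its exons overlap Plg on the opposite strand, a gene with at most 10 counts in a library here.

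Slc22a3 and Slc22a2 are neighbours on mouse chromosome 17 and both encode organic cation transporters. Slc22a2, the kidney form OCT2, was at 0 counts in all 6 libraries. The start regions of the carrier that fell and of its neighbour at 0 counts are shown because they set the 2 genes side by side, each from 250 bases before to 50 bases after the RefSeq start, on the gene's own strand (GRCm38.p6; chr17:12507655-12507954, minus strand, for Slc22a3 and chr17:12583939-12584238, plus strand, for Slc22a2). Capitals mark the 50 bases from the start onward.
Slc22a3: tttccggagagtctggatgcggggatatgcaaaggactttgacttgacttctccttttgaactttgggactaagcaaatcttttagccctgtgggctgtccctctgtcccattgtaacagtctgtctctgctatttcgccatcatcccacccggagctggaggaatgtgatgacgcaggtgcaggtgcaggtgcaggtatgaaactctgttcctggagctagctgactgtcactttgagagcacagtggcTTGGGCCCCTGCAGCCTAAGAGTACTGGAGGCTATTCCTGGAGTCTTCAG
Slc22a2: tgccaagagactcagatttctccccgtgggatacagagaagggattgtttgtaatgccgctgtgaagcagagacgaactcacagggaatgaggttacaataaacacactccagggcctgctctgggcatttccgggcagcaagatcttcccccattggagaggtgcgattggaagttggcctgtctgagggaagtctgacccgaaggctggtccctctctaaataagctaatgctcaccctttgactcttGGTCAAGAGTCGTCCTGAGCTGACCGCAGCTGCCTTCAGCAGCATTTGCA
Their GC content was 52.0% and 52.7%, beside a median of 52.7% over the 32851 promoters of the table.

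The promoter table held 44 of the 56 carriers, with 49 entries. Of the carriers past the threshold only Slc22a3 had an entry, and Slc47a1, Slc16a6 and Slco3a1 had none. In both orientations, the letters GTTAAT (part of an HNF1 site) occurred in 5 of the 49 and in 7.10% of all promoters, CAAAGTCCA (an HNF4 core) in 0 and 0.475%, TTTATNG (CDX) in 5 and 10.9%, TGACNNNGC (antioxidant response element) in 6 and 12.4%, and CACGTG (E-box) in 5 and 7.15%. The entry of Slc22a2 held a CDX match and that of Slc22a3 held none of these letters. Slc16a10 had the HNF1 letters, and Slc16a1 and Slc16a12 had both the antioxidant response and E-box letters. None of the 5 motifs lies wholly within another, and a match describes the letters of these windows only.

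Slc22a5, Slc22a21 and Slc22a4 lie next to each other and encode the carnitine and ergothioneine carriers OCTN2, OCTN3 and OCTN1. Slc22a5, the sodium-coupled carnitine carrier, was the most abundant cation or carnitine carrier at a mean of 35.3 FPKM. It was at 104, 129.6 and 134.5 CPM in controls 1, 2 and 3 and at 85.6, 109.5 and 86.1 CPM in knockouts 1, 2 and 3. Knockout 2 lay above control 1, so the groups overlapped. The difference missed the threshold (log2 fold change -0.39 ± 0.14 SE, adjusted p = 0.0966) and passed it with the replicate block (adjusted p = 0.0487) and when control 1 was left out (adjusted p = 0.0449).

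Slc22a21 (log2 fold change 0.10 ± 0.17 SE, 95% interval -0.30 to 0.50) and Slc22a4 (0.06 ± 0.15 SE, 95% interval -0.29 to 0.41) did not pass the test. Without knockout 1 the value for Slc22a4, the ergothioneine carrier, was -0.10. The deposited counts of Slc22a5 and Slc22a21 were not whole in all 6 libraries, as arises when reads are shared between similar genes, so how the counts divide between these 2 genes is uncertain.

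Among 10 tested genes of carnitine use and synthesis, 2 rose and 1 fell, and with the replicate block 2 rose and 2 fell, Cpt1a being the addition. Cpt2, the inner-membrane carnitine palmitoyltransferase, rose (log2 fold change 0.41 ± 0.11 SE, adjusted p = 0.0411), as did Acadl, a long-chain acyl-CoA dehydrogenase (0.41 ± 0.11 SE, adjusted p = 0.0358). Both calls were lost when any single library other than control 1 was left out, with adjusted p up to 0.134 for Cpt2 and 0.121 for Acadl. Acadvl, the very-long-chain dehydrogenase of fatty acid oxidation, fell (-1.33 ± 0.13 SE, adjusted p = 0.00163) and kept its call without any 1 library. Aldh9a1, an enzyme of carnitine synthesis and the most abundant of the list, was at 0.21 ± 0.17 SE (adjusted p = 0.428). The median of the list was -0.017, near that of all tested genes.

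Of the other 6 Slc22 members, 4 were tested and 0 passed in edgeR (1 at an unadjusted p under 0.05, and 1, Slc22a23, with DESeq2). Slc22a18, a carrier of unsettled substrate encoded in an imprinted region, was the most abundant of them at a mean of 48.1 FPKM. It was at 71.5, 83.2 and 66.4 CPM in controls 1, 2 and 3 and at 68.8, 72.3 and 64.0 CPM in knockouts 1, 2 and 3. The ranges overlapped, with control 2 above every knockout library and knockout 3 under every control (log2 fold change -0.11 ± 0.11 SE, 95% interval -0.37 to 0.15, and 0.03 with library size alone).

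Slc22a23, an orphan carrier linked to inflammatory bowel disease by human genetics, was at 154, 112.5 and 152 CPM in controls 1, 2 and 3 and at 111.7, 93.2 and 95.4 CPM in knockouts 1, 2 and 3. Knockout 1 lay just under control 2, so the groups did not overlap but nearly touched. The difference was just short of the threshold (log2 fold change -0.48 ± 0.15 SE, adjusted p = 0.0552). It passed with the replicate block (adjusted p = 0.0262), with DESeq2 (adjusted p = 0.0352) and when control 2 was left out (adjusted p = 0.0247). Slc22a17, a receptor of lipocalin 2, was at -0.51 ± 0.42 SE (adjusted p = 0.428), and Slc22a15, a carrier of zwitterions, at -0.03 ± 0.24 SE (0.10 with library size alone).

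Of the OATP carriers, 5 of 14 were tested. Slco3a1 (ENSMUSG00000025790) encodes OATP3A1, which carries prostaglandins and thyroxine. It was at 21.1, 13.2 and 18.4 CPM in controls 1, 2 and 3 and at 11.6, 11 and 8.73 CPM in knockouts 1, 2 and 3. The groups did not overlap, with control 2 close to knockout 1. The level was 1.68-fold lower (log2 fold change -0.75 ± 0.21 SE, 95% interval -1.23 to -0.28, adjusted p = 0.0399). The call held without control 2 (adjusted p = 0.0247) and was lost without any other library (adjusted p up to 0.138), with library size alone (0.0684), and with limma on log2(FPKM + 0.1) and log2(FPKM + 1) (0.109 and 0.107).

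Slco2a1, the prostaglandin transporter PGT, was the most abundant OATP gene at a mean of 19.4 FPKM. It was at 93.9, 160.0 and 153.5 CPM in controls 1, 2 and 3 and at 142, 142 and 138 CPM in knockouts 1, 2 and 3. Control 1 was low and the other 5 libraries were close together. The difference was 0.05 ± 0.19 SE on the log2 scale (95% interval -0.39 to 0.49, adjusted p = 0.874), and -0.11 without control 1. Slco2a1 is also a gene of vessel walls, and 5 endothelial markers had their lowest summed level in the same library: 40.9, 86.3 and 65.4 CPM in controls 1, 2 and 3, beside 80.7 to 90.3 CPM in knockout. Of these markers, 1 (Lyve1) was called higher. Control 1 was also the lowest control for summed enterocyte markers (31960, 41980 and 42900 CPM in controls 1, 2 and 3). The same held for fibroblast markers (274.5, 335.1 and 382.1 CPM), while goblet markers were highest in control 1 (15950, 8568 and 6841 CPM). The part of any of these cells in the level of Slco2a1 was not tested.

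Slco2b1, the OATP2B1 carrier of steroid sulfates and oral drugs on the enterocyte, was at 34.5 to 39.7 CPM in control and 34.8 to 41.1 CPM in knockout (log2 fold change 0.06 ± 0.11 SE, 95% interval -0.20 to 0.32). This is among the narrowest intervals of the set and the ranges nearly coincide. Slco4a1, a thyroid hormone carrier, was at -0.51 ± 0.26 SE (adjusted p = 0.199), with knockout 1 at 4.22 CPM just under control 1 at 4.32 CPM. Slco5a1, an orphan at under 1 CPM in each library, was at -0.42 ± 0.44 SE (adjusted p = 0.549).

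Of 9 genes of prostaglandin and thyroid hormone handling, 2 fell and none rose, with a median of -0.32. Hpgds, the hematopoietic prostaglandin D synthase that is also made by tuft cells, fell (log2 fold change -0.90 ± 0.25 SE, adjusted p = 0.0417), and Thrb, the beta receptor of thyroid hormone, fell (-0.49 ± 0.12 SE, adjusted p = 0.0266). Both calls were lost when any library other than control 1 was left out (adjusted p up to 0.133 and 0.115) and with library size alone (0.0734 and 0.0833). For Hpgds, the call was also lost with no count filter (0.0501) and with limma on log2(FPKM + 0.1) and log2(FPKM + 1) (0.0826 and 0.0755), and for Thrb with the same limma fits (0.121 and 0.118). Hpgd, the enzyme that inactivates prostaglandins after uptake, was the most abundant of the list (-0.32 ± 0.16 SE, adjusted p = 0.188).

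**Figure D3:**
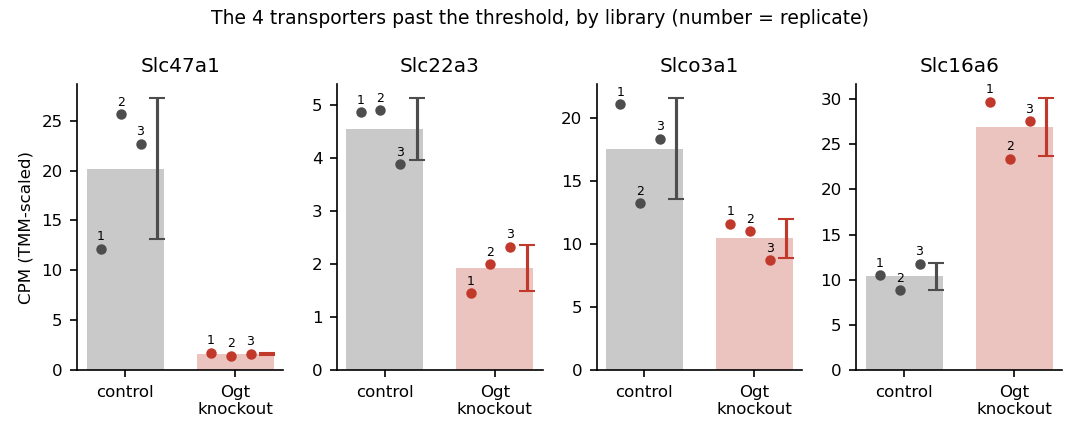
TMM-scaled CPM of the 4 carriers past the threshold, with 1 numbered point per library, bars for the mean of 3 libraries and error bars for the SD, each panel on its own axis from 0. Knockout points of Slc47a1 lie between 1.44 and 1.73 CPM against 12.2 to 25.65 CPM in control, and those of Slc16a6 between 23.4 and 29.7 CPM against 8.85 to 11.8 CPM.

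Slc16a6 (ENSMUSG00000041920) encodes MCT7, a carrier linked to the export of ketone bodies from liver cells. It was at 10.5, 8.85 and 11.8 CPM in controls 1, 2 and 3 and at 29.7, 23.4 and 27.6 CPM in knockouts 1, 2 and 3. The lowest knockout library, knockout 2, was well above the highest control library, control 3. The level was 2.59-fold higher (log2 fold change 1.37 ± 0.16 SE, 95% interval 1.01 to 1.74, adjusted p = 0.00264), and with each library left out in turn the adjusted p stayed at or under 0.0190.

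Slc16a6 shares exon sequence with Amz2 and Arsg on the opposite strand, and the library kit does not mark strand, so their reads cannot be told apart where they overlap. Its deposited counts were not whole in 5 of 6 libraries. Amz2, a metalloprotease gene, had 429, 362 and 345 counts in controls 1, 2 and 3 and 231, 246 and 249 in knockouts 1, 2 and 3. Arsg, a lysosomal sulfatase gene, had 48, 33 and 29 counts in control and 66, 68 and 82 in knockout. The first was thus lower in every knockout library and the second higher, and how the reads were divided among the 3 genes was not tested.

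Slc16a5 encodes MCT6, an orphan MCT that carries some drugs such as bumetanide and that is abundant in human gut. It was the carrier with the highest mean FPKM. Its level was 120.2, 161 and 169 CPM in controls 1, 2 and 3 and 123, 126 and 101 CPM in knockouts 1, 2 and 3. Control 1 lay among the knockout libraries and the other 2 controls above them. The difference did not pass the test (log2 fold change -0.37 ± 0.15 SE, adjusted p = 0.138) and passed it without control 1 (adjusted p = 0.0286).

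Of 6 carriers of lactate, pyruvate and ketone bodies, 5 were tested and 0 passed in edgeR (2 at an unadjusted p under 0.05, 0 with DESeq2 and 0 of the 4 tested with limma on FPKM), all with a log2 fold change below 0 in the fit with TMM factors. Slc16a8, the MCT3 of retinal epithelium, had 8 counts in control and 1 in knockout and was not tested. Slc16a1, the widely expressed lactate and butyrate carrier MCT1, was the most abundant at a mean of 24.0 FPKM. It was at 148, 108 and 116 CPM in controls 1, 2 and 3 and at 109.8, 75.6 and 85.3 CPM in knockouts 1, 2 and 3. In both groups library 1 was the highest and library 2 the lowest, and only knockout 1 reached into the control range. The difference was -0.46 ± 0.17 SE on the log2 scale, with adjusted p = 0.1001 without and 0.0148 with the replicate block.

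Slc16a3, the lactate exporter MCT4 of glycolytic cells, followed the replicate number in the same way. It was at 61.4, 18.01 and 33.4 CPM in controls 1, 2 and 3 and at 29.3, 13.8 and 16.1 CPM in knockouts 1, 2 and 3. Each knockout library was below the control library of the same number, while the ranges overlapped (log2 fold change -0.93 ± 0.50 SE, adjusted p = 0.242 without and 0.0164 with the replicate block). Without control 1, the highest library, the log2 fold change was -0.34 with adjusted p = 0.590. Libraries numbered 1 also had the highest summed level of 7 Paneth cell markers in each group, at 2402, 224 and 2055 CPM in controls 1, 2 and 3 and 3121, 1298 and 1213 CPM in knockouts 1, 2 and 3. Summed markers of liver and pancreas were also highest in library 1 of each group (9.74 CPM in control and 15.69 CPM in knockout). Goblet markers were highest in control 1 (15950, 8568 and 6841 CPM in controls 1, 2 and 3). In knockouts 1, 2 and 3 the goblet markers were at 6682, 8338 and 4789 CPM. The part of any of these cells in the spread of Slc16a3 was not tested.

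Slc16a7, the high-affinity pyruvate and lactate carrier MCT2, was at 2.91 to 3.71 CPM in control and 1.52 to 2.28 CPM in knockout. Its groups did not overlap, with an adjusted p of 0.0940 (log2 fold change -0.75 ± 0.27 SE). The neighbours Slc16a13 and Slc16a11, both known from human diabetes loci, were at -0.09 ± 0.28 SE and 0.00 ± 0.33 SE, and at 0.05 and 0.14 with library size alone.

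Bsg, the protein that brings MCT1 and MCT4 to the membrane, belongs to a list of 8 chaperones and scaffolds, and 0 of the 8 passed in edgeR with or without the block, as with DESeq2 and limma (0 at an unadjusted p under 0.05). The most abundant of them, Slc9a3r1, the scaffold NHERF1, was at 0.11 ± 0.22 SE (adjusted p = 0.769), and at -0.06 without control 1 and -0.01 without knockout 2. Among 11 genes of lactate, pyruvate and ketone body metabolism, 1 rose and 4 fell, with a median of -0.67. With the replicate block the counts were also 1 and 4, but not of all the same genes. Acat1 (log2 fold change -0.87 ± 0.15 SE, adjusted p = 0.00889) and Oxct1 (-0.78 ± 0.22 SE, adjusted p = 0.0465), which work in ketone body breakdown, fell.

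Mpc2, a subunit of the mitochondrial pyruvate carrier (log2 fold change -0.67 ± 0.13 SE, adjusted p = 0.0138), and Pdha1, of pyruvate dehydrogenase (-0.53 ± 0.10 SE, adjusted p = 0.0106), fell as well. The call of Oxct1 was lost with the replicate block (adjusted p = 0.0610), with library size alone (0.0522), with limma on log2(FPKM + 0.1) and log2(FPKM + 1) (0.0552 and 0.0531) and without any library other than knockout 1 (up to 0.147). That of Mpc2 was lost without knockout 3 (0.0526) and that of Pdha1 without knockout 2 or knockout 3 (up to 0.0553). Ldha, the lactate dehydrogenase subunit with the highest FPKM of the list, did not pass (0.36 ± 0.14 SE, adjusted p = 0.0994) but did with DESeq2 (adjusted p = 0.00948), library size alone (0.0254) and limma on log2(FPKM + 0.1) and log2(FPKM + 1) (0.0290 and 0.0299).

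The other 4 Slc16 carriers transport hormones, amino acids, creatine or carnitine, and 0 passed in edgeR without the block (3 at an unadjusted p under 0.05, and 0 with DESeq2). Slc16a10, the aromatic amino acid carrier TAT1 of the blood-facing membrane, was the most abundant at a mean of 14.1 FPKM. It was at 46.0, 179 and 90.5 CPM in controls 1, 2 and 3 and at 29.65, 51.05 and 43.2 CPM in knockouts 1, 2 and 3. Controls 2 and 3 stood above all knockout libraries, control 1 stood among them, and in each group library 1 was the lowest and library 2 the highest. The log2 fold change was -1.35 ± 0.50 SE with adjusted p = 0.119, and -1.18 with adjusted p = 0.0294 with the replicate block. Without control 1 the adjusted p was 0.0323, and without control 2, the highest library, the log2 fold change was -0.69 with adjusted p = 0.241.

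Slc16a12, a creatine carrier, was, besides Slc16a6, the only carrier higher without overlap: 1.10, 0.606 and 0.706 CPM in controls 1, 2 and 3 and 1.80, 1.72 and 1.59 CPM in knockouts 1, 2 and 3. Its total was 40 counts in control and 87 in knockout (log2 fold change 1.08 ± 0.35 SE, adjusted p = 0.0670). It passed with library size alone (adjusted p = 0.0469) and without control 1 (0.0358). Slc16a9, a carnitine and creatine carrier, was at -0.84 ± 0.49 SE (adjusted p = 0.268).

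**Figure D4:**
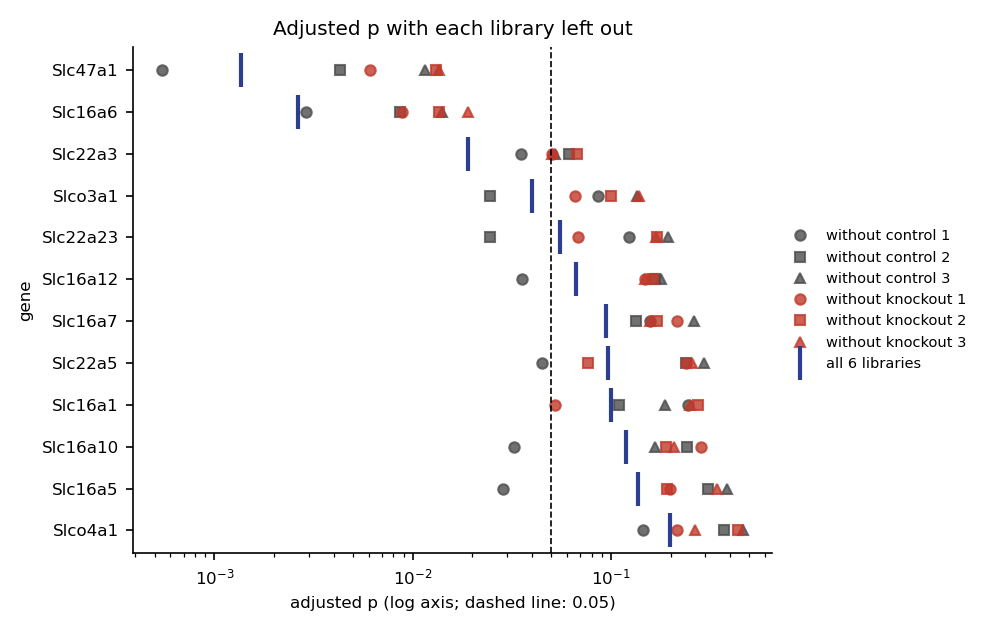
Adjusted p (log axis) of the 12 carriers with the smallest values among the 24 plotted by level, with all 6 libraries (blue bar) and with each library left out (points). Slc47a1 and Slc16a6 stay left of the dashed line at 0.05 in all 6 fits, and Slc22a3 and Slco3a1 have 1 point left of it, without control 1 and control 2 respectively.

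Carriers outside the 4 families that share substrates with them included a further cation carrier. Of 15 tested, 1 rose and 4 fell, with a median of -0.30. With the replicate block the counts were also 1 and 4, but not of all the same genes. Slc29a4, the monoamine carrier PMAT, which overlaps OCT3 and MATE1 in substrates, was at 2.80, 3.46 and 2.35 CPM in controls 1, 2 and 3 and at 0.484, 0.833 and 0.741 CPM in knockouts 1, 2 and 3. All knockout libraries were under all controls (log2 fold change -2.04 ± 0.34 SE, adjusted p = 0.00746), and the call held without any 1 library. Slc29a4 passed the count filter only through the control, so its difference is partly set by the filter. Slc47a1, Slc22a3 and Slc29a4, which all encode polyspecific cation carriers, thus fell.

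Slc10a2, the ileal bile acid carrier, fell (log2 fold change -1.35 ± 0.22 SE, adjusted p = 0.00656). Slc15a1, the peptide and beta-lactam carrier PEPT1, fell as well (-1.46 ± 0.38 SE, adjusted p = 0.0411), but lost its call with the replicate block (adjusted p = 0.0587), with no count filter (0.0663), with limma on log2(FPKM + 0.1) and log2(FPKM + 1) (0.0733 and 0.0730), and without any library other than control 1 (up to 0.133). Slc6a14, an amino acid carrier, fell from 82 counts in control to 8 in knockout (-3.32 ± 0.74 SE, adjusted p = 0.0195), and Slc19a3, a thiamine carrier, rose from 7 to 60 counts (2.97 ± 0.68 SE, adjusted p = 0.0220). The log2 fold change was 4.13 without control 2 for Slc19a3 and -4.23 without knockout 1 for Slc6a14. Slc6a14 lost its call without knockout 2 or knockout 3 (up to 0.0821), and Slc19a3 without control 3, knockout 2 or knockout 3 (up to 0.0851). Slc6a14 passed the count filter only through the control and Slc19a3 only through the knockout, so these differences are partly set by the filter. Neither gene was tested under the stricter filter of 1 CPM, and DESeq2 gave Slc19a3 no adjusted p. Slc51b, a subunit of the basolateral bile acid exporter and the most abundant of the list, was at 0.12 ± 0.15 SE (adjusted p = 0.619).

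Of 9 ABC exporters, which pump drugs and conjugates out of the cell, 1 rose and 1 fell, with a median of -0.36. With the replicate block a second, Abcc5, was also lower. Abcc3, the basolateral exporter of glucuronides and bile salts, rose (log2 fold change 1.01 ± 0.13 SE, adjusted p = 0.00341). Abcc6 fell (-1.79 ± 0.38 SE, adjusted p = 0.0169), a call lost without knockout 2 or knockout 3 (adjusted p up to 0.0769). Abcg2, the luminal drug exporter BCRP, had the highest FPKM of the list and did not pass (-0.35 ± 0.13 SE, adjusted p = 0.107).

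Among 15 transcription factors known to act on carrier genes, 1 rose and 4 fell, and with the replicate block none rose and 5 fell, with Nfe2l2 added. Hnf4g (log2 fold change -0.80 ± 0.13 SE, adjusted p = 0.00667) and Cdx2 (-0.53 ± 0.11 SE, adjusted p = 0.0148), factors of intestinal identity, fell. The median of the list was -0.30. Cdx2 lost its call without control 3, knockout 2 or knockout 3 (up to 0.0585). Rxrb, a retinoid X receptor, fell (-0.47 ± 0.13 SE, adjusted p = 0.0450), a call lost without any 1 library (0.0807 to 0.123), with DESeq2 size factors (0.0526), library size alone (0.156), no count filter (0.0546) and limma on log2(FPKM + 0.1) and log2(FPKM + 1) (0.140 and 0.139). Nr1i2, the drug-sensing receptor PXR, rose (0.39 ± 0.11 SE, adjusted p = 0.0476), a call lost with the replicate block (0.0553), with no count filter (0.0525) and without any library other than control 1 (up to 0.133). Hnf4a, the most abundant of the list, was at -0.27 ± 0.13 SE (adjusted p = 0.198).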

How the data were processed

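Total RNA of ileal epithelial cells from 3 control and 3 Ogt knockout samples was extracted with Trizol and made into libraries with the NEBNext Ultra kit, per the labels' protocols. The authors deposited estimated counts and FPKM for 22274 genes, per the file headers; the submitters' processing notes name GRCm39 and mm39, and aligner and counter: not given in the sources used here. Between 7.68% and 8.09% of counts per library were not whole (tolerance 0.001), and all were rounded. Symbols come from GENCODE M21 (22219 IDs) or the deposited table (43).

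Genes were filtered with filterByExpr (minimum count 10, minimum total 15), scaled by TMM and tested with edgeR 4.0.16 (R 4.3.3; quasi-likelihood, robust), Benjamini-Hochberg adjusted over 14005 genes. The SE is the log2 fold change over the square root of F. Alternatives used DESeq2 1.42.0, limma 3.58.1 on log2(FPKM + 0.1) or log2(FPKM + 1) where 3 libraries reached 1 FPKM, other scalings and filters, a log2 fold change of at least 1, a replicate block and each library left out.

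The main fit had no block. Deviations from group means correlated at 0.282, 0.281 and 0.109 for control and knockout libraries numbered 1, 2 and 3. The block was therefore treated as pairing in an alternative fit only, on a hint from the data. The labels do not say what the numbers mark. Libraries differed by more than sampling noise (mean chi-square per gene at least 20.6 for every pair). On simulated counts for these 14005 genes, the test found 58 of the 100 set to a 2-fold change and 85 of the 100 set to a 4-fold change, with 14 unchanged genes called, and 0 called when none was changed. Promoters are from RefSeq (GRCm38.p6). The members and gene lists were chosen with earlier results of these data known. Described in every library are carriers past the threshold and the most abundant of each role. Slc22a23, Slc16a3 and Slc16a12 are also described in every library, outside this rule. Of the other lists, genes past the threshold and the most abundant are described. Of list genes, 1 (Tmlhe) had no match and 3 were matched by a synonym. Abcc5, Cpt1a and Nfe2l2 were named after their values were seen. A few carriers and list genes are counted but not reported here by name.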

Additional observations from a re-analysis of the deposited data

How the results depend on the processing

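The count of carriers called lower was 3 and became 8 with the replicate block. The count called higher was 1 and became 2 with library size alone. With 1 library left out, 1 to 5 carriers were called lower, 1 to 2 higher, and 1010 to 3305 genes changed of all tested, beside 2619 with all libraries and 716 at a log2 fold change of at least 1. The 5 lower and 2 higher came without control 1. Apart from the calls given in the text above, the replicate block changed no other call of a carrier or of a gene named with a test.

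Among carriers and genes named with a test, direction changed for 7, each with a value near 0. With library size alone, log2 fold changes were 0.051 for Slc16a13, 0.142 for Slc16a11, 0.025 for Slc22a18 and 0.101 for Slc22a15. With limma on log2(FPKM + 0.1) and log2(FPKM + 1) they were 0.034 and 0.023 for Slc16a13, 0.171 and 0.124 for Slc16a11, and 0.053 and 0.052 for Slc22a18. Slc16a11 was at 0.017 with DESeq2 size factors and 0.018 with DESeq2. With 1 library left out, the values spanned -0.110 (without control 1) to 0.218 for Slco2a1, -0.102 (without knockout 1) to 0.151 for Slc22a4, -0.150 to 0.017 (without control 2) for Slc22a18, -0.310 to 0.071 (without control 3) for Slc16a13, -0.161 to 0.220 (without knockout 1) for Slc16a11, -0.115 to 0.181 (without control 1) for Slc22a15 and -0.062 (without control 1) to 0.279 for Slc9a3r1. The cause was not tested.

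Depth limits the 30 untested carriers and those with a mean under 2 CPM in both groups (such as Slco5a1, Slc16a9, Slc16a12 and Slc22a17), and 3 libraries a group limit all.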
